A study of Mus musculus with 8 samples.

Results

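The genes described here carry glucose into the cell, break it down to lactate, and answer low oxygen. The list named 35 genes in 6 roles plus the glycolysis brake Tigar, and its members were the non-control rows of the arrays that bear those gene names. Of the 35 genes, 34 had such rows, with 58 probes on 68 spots, out of 55681 probes on 59305 non-control spots in all. Tigar had no row under that name and is described apart from the others. After dim probes were left out, 56 of the 58 probes remained, and each of the 34 genes entered the comparison through its brightest probe, among 19702 features tested.

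Glycolysis splits glucose into pyruvate through a chain of enzymes in the cytosol, and lactate dehydrogenase turns pyruvate into lactate, which leaves the cell through monocarboxylate transporters. Glucose itself enters through facilitative transporters of the SLC2A (GLUT) family. When oxygen falls, the prolyl hydroxylases encoded by the Egln genes no longer mark HIF-1 alpha for destruction, and the HIF dimer then binds a short core sequence near its target genes, which include most enzymes of glycolysis, several glucose transporters, and genes such as Vegfa and Bnip3. Tumour cells, mammary ones among them, often run glycolysis at a high rate even with oxygen present.

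The cells were MAM326, a mouse mammary cancer line grown in serum-containing medium and sorted by fluorescence on day 2 after seeding into cells with GFP and cells without it. Both fractions came from the same culture conditions, with no further treatment. The promoter or construct behind the GFP signal is not given in the labels; the series title speaks of a cancer stem cell population. Each fraction was measured on 4 one-colour Agilent arrays, made from 20 ng of total RNA each. The labels mention independent experiments at different passages but do not tie arrays to them, so every p-value refers to the spread between these 8 arrays of 1 cell line.

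All 8 arrays lay on 1 slide and were read in 1 scan. Row 1 of the slide held GFP-positive replicates 1 and 3 with GFP-negative replicates 2 and 4, and row 2 held the other 4 arrays. Each replicate number thus had 1 array in each row, while slide column was the same as replicate number, so column, number and any experiment tied to the number cannot be told apart. Between 45.1% and 57.4% of probes were well above background, and 0 spots were saturated. The share was 50.9% to 57.4% on the row 1 arrays and 45.1% to 48.1% on the row 2 arrays. The part of this in the differences between rows given below was not tested. All 10 mammary epithelial markers were above background on every array, as the label of the line implies, while the endothelial markers Cdh5, Tek and Tie1, the fat cell markers Adipoq and Plin1 and the fibroblast marker Lum were not above background on any array. Of the other endothelial markers, Kdr was above background on every array and Pecam1 on 3 arrays of each group. Of the other fat cell markers, Fabp4 was above it on every array and Lpl on 3 of each group. The other 6 fibroblast markers were above background on every array, and the summed signal of all 7 was 3.76 to 60.4 in GFP-positive and 14.1 to 171 in GFP-negative arrays, as multiples of each array's 75th percentile. Of the 8 leukocyte markers, 5 to 7 exceeded background in GFP-positive and 5 in GFP-negative arrays, with summed signals of 19.5 to 27.6 and 16.9 to 22.9. Of the 5 bright enough to test, the macrophage markers Cd68 (1.0 ± 0.11 on the log2 scale, adjusted p = 0.00436 by limma) and Cd14 (0.56 ± 0.11, 0.0498) were higher in GFP-positive cells without overlap, while Csf1r, Itgam and Cd3e were at 0.29, 0.03 and -0.08, and Ptprc and Adgre1 were too dim to test. Which cells gave the signal of these markers was not tested, nor was its part in the differences below.

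Levels are log2 values of the processed signal relative to the array's 75th percentile, so a level of 0 is that percentile. Differences are GFP-positive minus GFP-negative on that log2 scale with the standard error of the limma fit, and adjusted p-values are Benjamini-Hochberg values over all 19702 features, with a threshold of 0.05. Levels of different genes are not set against each other, since probes differ in brightness.

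Glucose transport was the role in which a gene passed the test: Slc2a3, the high-affinity glucose transporter GLUT3, was 2.49-fold lower in GFP-positive cells. Of the 34 genes, 0 were called higher and 1 was called lower, where 1.82% of all features were called higher and 0.741% lower (359 and 146 features; 424 and 362 with normexp background correction, 182 and 21 with median centring). At an unadjusted p under 0.05, 1 gene was higher and 12 were lower, against 7.83% and 15.1% of all features. In RNA from sorted pools, fewer cells of a type and less RNA per cell cannot be told apart.

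The direction leaned to lower values across the list. Of the 34 differences, 27 were below 0, as were 60.7% of those of all features, and the median was -0.23 against -0.06 for all features. With quantile normalization 23 of 34 were below 0 and the medians were -0.16 and -0.03. Groups did not overlap for 8 genes (23.5%), 7 of them lower and 1 higher, where 16.7% of all features did not overlap, 11.6% lower and 5.07% higher. By role, the median difference was -0.76 for the 5 glucose transporters, -0.21 for the 10 genes of upper glycolysis, -0.28 for the 6 of lower glycolysis, -0.22 for the 3 of lactate and pyruvate handling, -0.28 for the 3 of oxygen sensing, and 0.27 for the 7 hypoxia targets. With quantile normalization the medians of upper and lower glycolysis were -0.06 and -0.12, and with normexp that of the transporters was -0.39. Within slide row 1 and row 2 the medians were -1.54 and -0.08 for the transporters, -0.31 and -0.04 for upper glycolysis, -0.43 and -0.15 for lower glycolysis, -1.21 and 0.51 for lactate and pyruvate handling, -0.37 and -0.19 for oxygen sensing, and -0.20 and 0.27 for the hypoxia targets.

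**Figure D1:**
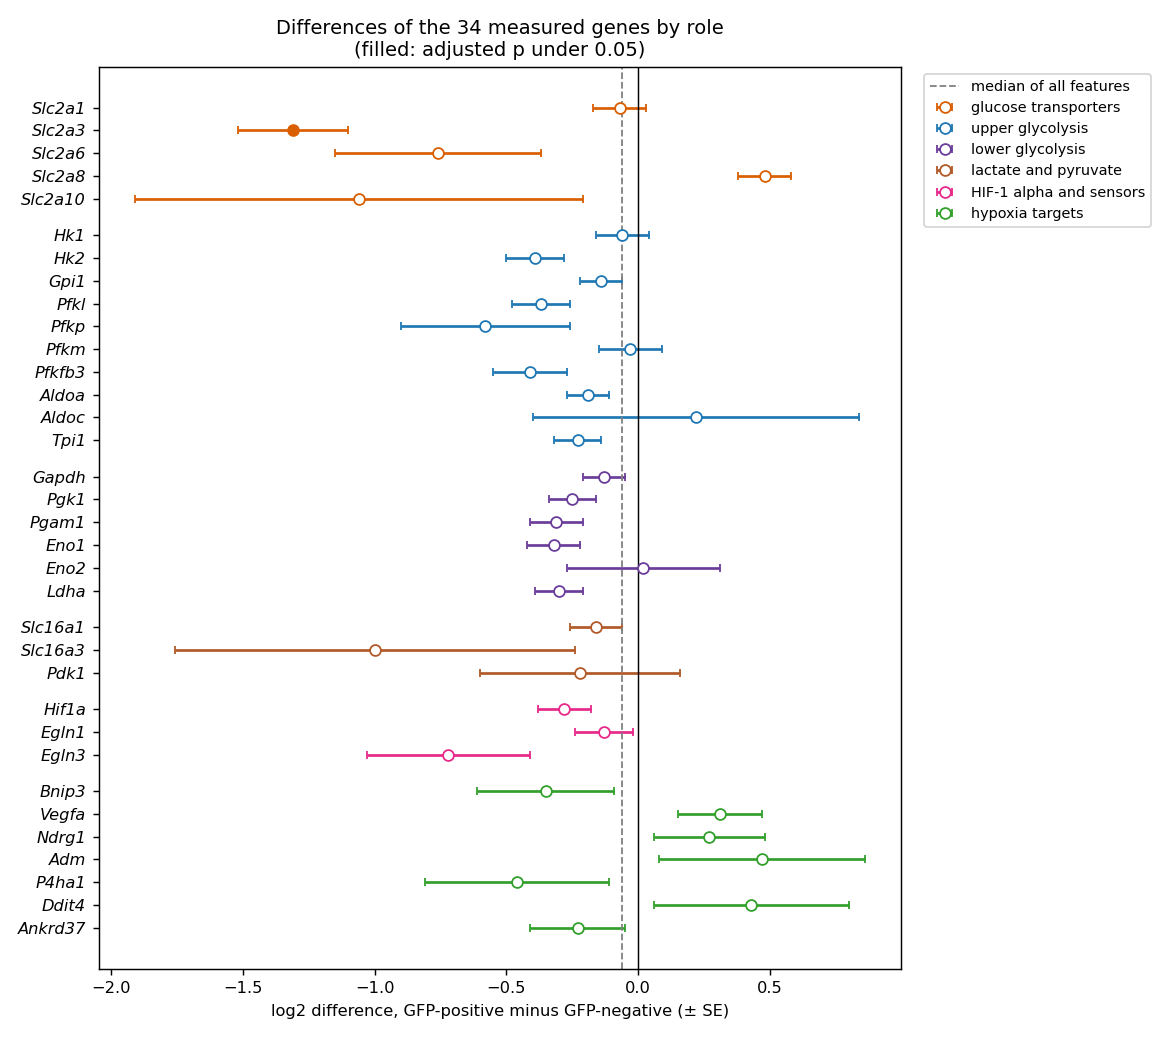
Log2 difference, GFP-positive minus GFP-negative, with its standard error (bars) for the 34 genes in 6 roles; the filled circle marks the gene past the adjusted threshold and the dashed line the median of all features, -0.06. Slc2a3 stands alone as a filled circle at -1.31, most enzymes of glycolysis sit between 0 and -0.41 with short bars, and Slc2a10 and Slc16a3 have the widest bars.

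Slc2a3 was measured by a probe at chr6:122678075-122678134 of mm9, the build of the files. Its levels were -2.16, -1.71, -2.16 and -2.38 in GFP-negative replicates 1 to 4 and -3.84, -3.53, -3.34 and -2.97 in GFP-positive replicates 1 to 4. Every GFP-positive array was below every GFP-negative array. Group means were -3.42 ± 0.36 and -2.10 ± 0.28 (SD, n = 4), a difference of -1.31 ± 0.21 (adjusted p = 0.0207). It was -1.54 within slide row 1 and -1.09 within row 2, and -0.69 with normexp background correction, which adds an offset that shrinks differences of dim probes. Slc2a3 missed the threshold when GFP-positive replicate 1 or 3 was left out (adjusted p = 0.0603 and 0.0596), when GFP-negative replicate 2 or 3 was (0.0526 and 0.0589), within slide row 1 (0.0685) or row 2 (0.392), with no filter on dim probes (0.0752) and with the replicate number as a block (0.0915), in a range of 0.0118 to 0.392 over all alternatives.

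Slc2a8 encodes GLUT8, a transporter held mostly on membranes inside the cell. Its levels were 2.53, 2.80, 2.68 and 2.58 in GFP-negative and 3.25, 3.0, 2.98 and 3.28 in GFP-positive replicates. The groups did not overlap and the spread in each was small, yet the difference of 0.48 ± 0.10 (1.40-fold) stood just outside the threshold (adjusted p = 0.0530; 0.0209 to 0.448 over the alternatives). It passed with normexp (0.0488), with probes above background on all 8 arrays (0.0417), with array weights (0.0209) and with a robust prior that follows intensity (0.0287). The difference was 0.42 within slide row 1 and 0.54 within row 2. Slc2a3 and Slc2a8 had opposite directions in both rows, which follows from groups that do not overlap and adds no support.

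Slc2a1 encodes GLUT1, the basal glucose transporter of most cells and a HIF target. Its levels ran from 3.68 to 3.93 in GFP-negative and from 3.61 to 3.97 in GFP-positive arrays, and the ranges covered each other. The difference was -0.07 ± 0.10 (adjusted p = 0.731), and 0.02 with quantile normalization. Slc2a6, a lysosomal member of the family, had levels of 1.39, 2.06, 1.67 and 2.02 in GFP-negative and 0.89, 1.59, -0.08 and 1.72 in GFP-positive replicates. GFP-positive replicate 3 lay far below the rest, and the difference of -0.76 ± 0.39 (adjusted p = 0.283) was -1.64 within row 1 and 0.12 within row 2. Slc2a10, the transporter GLUT10, was dim, above background on 2 GFP-positive and 3 GFP-negative arrays. Its levels were -6.96, -2.91, -3.91 and -3.63 in GFP-negative and -5.17, -6.45, -5.48 and -4.57 in GFP-positive replicates. GFP-negative replicate 1 lay below all other arrays, and the difference was -1.06 ± 0.85 (adjusted p = 0.489).

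**Figure D2:**
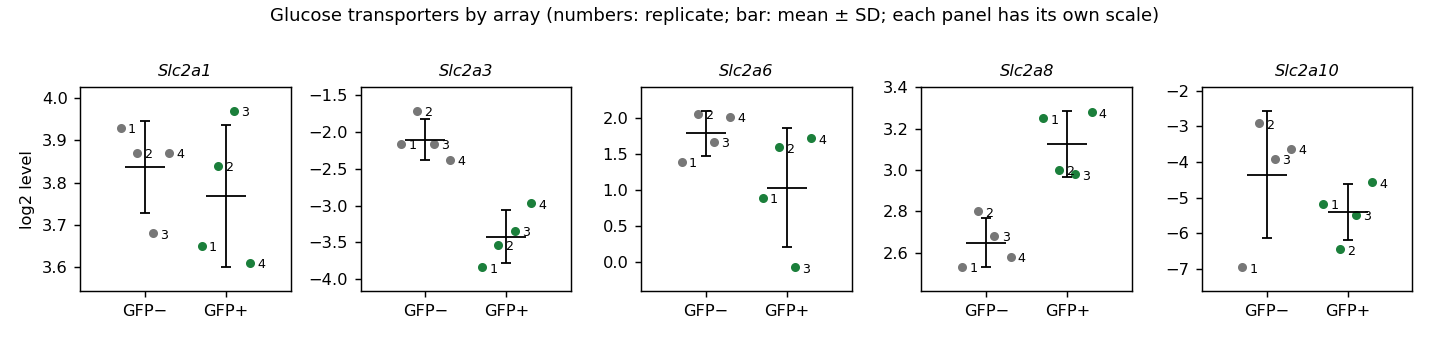
Log2 level of the 5 glucose transporters on each array, grey for GFP-negative and green for GFP-positive cells, numbered by replicate, with mean ± SD (n = 4); each panel has its own scale. The Slc2a3 points separate downward and the Slc2a8 points upward in GFP-positive cells, while those of Slc2a1, Slc2a6 and Slc2a10 overlap.

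The steps from glucose to triose phosphate had small differences that mostly pointed down, with 0 of 10 genes past the threshold and 5 below 0 at an unadjusted p under 0.05, where 15.1% of all features were. Hk2, the inducible hexokinase that traps glucose as glucose 6-phosphate, had levels of 1.25, 0.82, 1.11 and 1.07 in GFP-negative and 0.62, 0.80, 0.77 and 0.50 in GFP-positive replicates. The groups were separate, with GFP-negative replicate 2 close to GFP-positive replicate 2, and the difference was -0.39 ± 0.11 (1.31-fold, adjusted p = 0.102). Hk1, the housekeeping hexokinase, ranged from 7.69 to 7.93 and from 7.53 to 7.89, with a difference of -0.06 ± 0.10. The files place its brightest probe on chromosome 5, off the gene's chromosome 10, and its other 2 probes, on chromosome 10, gave 0.06 and 0.07.

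Phosphofructokinase, the committed step, is built from 3 kinds of subunit. The liver-type subunit Pfkl had levels of 2.26, 2.51, 2.38 and 2.43 in GFP-negative and 1.87, 2.28, 1.92 and 2.04 in GFP-positive replicates. GFP-positive replicate 2 alone reached into the GFP-negative range, and the difference of -0.37 ± 0.11 (adjusted p = 0.102; 0.0381 to 0.640 over the alternatives) passed with normexp and with array weights. The muscle-type subunit Pfkm, on 10 spots, ranged from 3.1 to 3.54 and from 3.05 to 3.41, with a difference of -0.03 ± 0.12. The platelet-type subunit Pfkp had levels of -0.77, 0.24, -0.70 and 0.26 in GFP-negative and -1.26, -0.42, -1.14 and -0.45 in GFP-positive replicates. Replicates 1 and 3 were lower than 2 and 4 in both groups, and the difference of -0.58 ± 0.32 was -1.45 within slide row 1 (adjusted p = 0.0211) and 0.30 within row 2, and its other probe gave -0.19 ± 0.07. Pfkfb3, which makes the phosphofructokinase activator fructose 2,6-bisphosphate, was at -0.41 ± 0.14 (adjusted p = 0.145), with levels of 0.17 to 0.68 in GFP-negative and -0.22 to 0.26 in GFP-positive arrays.

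Gpi1 (glucose phosphate isomerase) was at -0.14 ± 0.08, Aldoa (the main aldolase) at -0.19 ± 0.08 and Tpi1 (triose phosphate isomerase) at -0.23 ± 0.09, with adjusted p-values of 0.313, 0.204 and 0.171. Tpi1 levels were 7.40, 7.57, 7.42 and 7.40 in GFP-negative and 7.24, 7.32, 7.02 and 7.27 in GFP-positive replicates, without overlap. Aldoa did not overlap either, with 7.85 to 8.0 against 7.62 to 7.83. With quantile normalization these 3 differences were 0.02, -0.03 and -0.09. Aldoc, the brain-type aldolase and a HIF target, was the exception in spread and is described with the hypoxia genes.

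Lower glycolysis, where ATP is made, had the closest replicates of the list. Ldha, the lactate dehydrogenase subunit that favours lactate, was measured at chr7:54110937-54110996 of mm9. Its levels were 8.65, 8.72, 8.62 and 8.82 in GFP-negative and 8.34, 8.57, 8.29 and 8.38 in GFP-positive replicates, with no overlap between the groups. The difference was -0.30 ± 0.09 (1.23-fold, adjusted p = 0.0975; 0.0429 to 0.613 over the alternatives), and its other 2 probes gave -0.38 and -0.34.

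Eno1 (enolase) had levels of 7.99, 7.88, 7.86 and 7.95 in GFP-negative and 7.40, 7.82, 7.53 and 7.65 in GFP-positive replicates. The groups were again separate, by little at GFP-positive replicate 2, and the difference was -0.32 ± 0.10 (adjusted p = 0.115). Pgam1 (phosphoglycerate mutase) had 7.56, 7.62, 7.55 and 7.62 against 7.17, 7.54, 7.23 and 7.15, a difference of -0.31 ± 0.10 (adjusted p = 0.117) that passed without GFP-positive replicate 2 (0.0425) and with array weights. Pgk1 (phosphoglycerate kinase) ranged from 7.76 to 8.01 in GFP-negative and from 7.49 to 7.78 in GFP-positive arrays, a difference of -0.25 ± 0.09 (adjusted p = 0.148). Gapdh ranged from 9.15 to 9.34 and from 9.01 to 9.23, a difference of -0.13 ± 0.08 (adjusted p = 0.364), the 7 probes of Gapdh giving -0.13 to -0.23. Eno2, the neuronal enolase, was at 0.02 ± 0.29, with GFP-negative replicate 1 (-0.54) and GFP-positive replicate 3 (-0.58) lowest in their groups. The files place the probes that stand for Eno1, Gapdh and Pgk1 on chromosomes 2, X and 3, off the genes' chromosomes 4, 6 and X, so these probes may share signal with near-identical copies; the Pgk1 probe on X gave -0.23.

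Other bright probes leaned lower as well. Among the 786 features with a mean level of at least 7, 735 were below 0, the median was -0.15 and 24.7% did not overlap between groups. The 9 genes of the list in that class (Hk1, Gpi1, Aldoa, Tpi1, Gapdh, Pgk1, Pgam1, Eno1 and Ldha) were all below 0, with a median of -0.23, and 5 of them did not overlap. With quantile normalization the median of the class was -0.01 with 433 of 786 below 0, and that of the 9 enzymes was -0.09 with 7 of 9 below 0, the exceptions being Hk1 (0.09) and Gpi1 (0.02). Under that scaling Ldha was at -0.15, and Eno1 and Pgam1 were at -0.17. The 6 proliferation markers, all above background, summed to 172 to 177 in GFP-positive and 191 to 207 in GFP-negative arrays, with a median difference of -0.21, and their part in the lower enzyme levels was not tested.

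**Figure D3:**
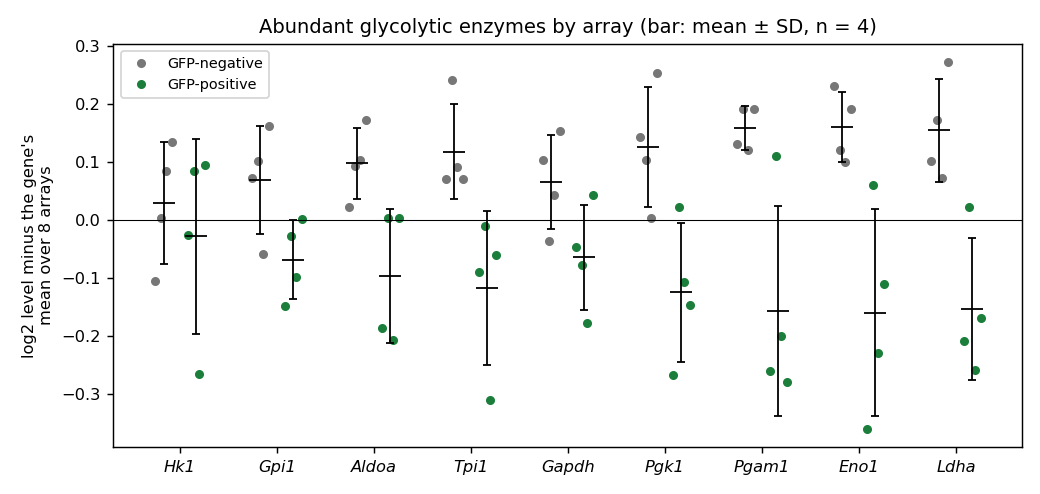
Log2 level of 9 bright glycolytic enzymes on each array, shown as the distance from the gene's mean over all 8 arrays, grey for GFP-negative and green for GFP-positive cells, with mean ± SD (n = 4). GFP-positive means lie below GFP-negative means for all 9, by 0.06 for Hk1 up to 0.32 for Eno1 with 75th percentile scaling; Hk1 and Gpi1 turn with quantile normalization.

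The exit of carbon from glycolysis was described by 3 genes. Slc16a3 encodes MCT4, the lactate exporter of glycolytic cells and a HIF target. Its levels were 0.46, 3.43, 2.21 and 2.16 in GFP-negative and 1.19, 1.18, -0.59 and 2.50 in GFP-positive replicates. The spread within each group (SD 1.22 and 1.27) exceeded the difference of -1.0 ± 0.76 (adjusted p = 0.474), which was -2.50 within slide row 1 and 0.51 within row 2. Its other probe gave -0.95. Slc16a1, the MCT1 transporter that carries lactate in either direction, had close replicates, from -3.93 to -3.67 in GFP-negative and from -4.09 to -3.80 in GFP-positive arrays, and a difference of -0.16 ± 0.10 (adjusted p = 0.348). Pdk1, the kinase that blocks pyruvate dehydrogenase and with it the conversion of pyruvate to acetyl-CoA, was at -0.22 ± 0.38, with levels of -3.79 to -2.36 in GFP-negative and -4.09 to -2.92 in GFP-positive arrays.

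The oxygen-sensing genes did not pass the threshold. Hif1a levels were 1.21, 1.49, 1.19 and 1.47 in GFP-negative and 1.01, 1.07, 1.22 and 0.96 in GFP-positive replicates. GFP-positive replicate 3 alone overlapped the GFP-negative arrays, and the difference was -0.28 ± 0.10 (1.21-fold, adjusted p = 0.165). Since HIF-1 alpha is controlled mainly through protein stability, mRNA on an array does not measure its activity. Egln3, the prolyl hydroxylase that HIF itself induces, was at -0.72 ± 0.31 (1.65-fold, adjusted p = 0.216). Its levels were -1.67, -1.72, -2.52 and -1.33 in GFP-negative and -3.26, -2.22, -2.39 and -2.26 in GFP-positive replicates, GFP-positive replicate 1 standing lowest, and its other probe gave -0.60. Egln1, the main oxygen sensor, ranged from -1.34 to -1.19 in GFP-negative and from -1.60 to -1.13 in GFP-positive arrays, a difference of -0.13 ± 0.11.

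The 7 hypoxia targets did not move together. Above 0 lay Adm (adrenomedullin, a vasodilator peptide) at 0.47 ± 0.39, Ddit4 (an inhibitor of mTORC1) at 0.43 ± 0.37, Vegfa (the main angiogenic factor) at 0.31 ± 0.16 and Ndrg1 (a stress-induced differentiation gene) at 0.27 ± 0.21. Below 0 lay P4ha1 (a collagen prolyl hydroxylase) at -0.46 ± 0.35, Bnip3 (a mitophagy receptor) at -0.35 ± 0.26 and Ankrd37 at -0.23 ± 0.18. Adjusted p-values ran from 0.297 (Vegfa) to 0.520 (Ddit4), and the groups overlapped for each of the 7. Ddit4 alone kept its sign in both slide rows (0.54 and 0.32), while the row 1 and row 2 differences were 0.65 and -0.03 for Vegfa, 0.74 and -0.20 for Ndrg1, -1.01 and 0.32 for Bnip3, and -0.52 and 0.06 for Ankrd37, and Adm and P4ha1 turned as well. Vegfa levels were 3.05, 2.71, 3.17 and 3.04 in GFP-negative and 3.60, 3.26, 3.45 and 2.91 in GFP-positive replicates, with GFP-positive replicate 4 back among the GFP-negative arrays, and a second probe gave 0.18. Bnip3 levels were 1.92, 2.94, 2.13 and 2.68 against 1.93, 2.28, 1.67 and 2.40, and its 3 probes gave -0.35, -0.46 and -0.28. Ndrg1 ranged from 3.62 to 4.35 in GFP-negative and from 3.86 to 4.57 in GFP-positive arrays, and Ankrd37 from -0.53 to 0.24 and from -0.55 to -0.08.

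Several genes of the list differed widely between replicates of the same group. The mean SD within groups was at least 0.5 for 9 of the 34 genes (26.5%), against 11.5% of all features, and under 0.2 for 17 genes, against 57.6% of all features. The 9 genes were Slc2a6, Slc2a10, Pfkp, Aldoc, Slc16a3, Pdk1, Adm, P4ha1 and Ddit4, a set chosen after the values were seen. Within GFP-negative cells, replicate 1 was lowest for 8 of the 9 and replicate 2 highest for 8. Within GFP-positive cells, replicate 3 was lowest for 7 and replicate 4 highest for 7. The share of all features with this order was not counted. Across all features, deviations in GFP-negative replicate 1 correlated best with those in GFP-positive replicate 3 (0.603). Those in GFP-negative replicate 2 did so with GFP-positive replicate 4 (0.653), so these array matches were not confined to the 9 genes.

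Aldoc had this order in both groups, as did Slc16a3, described above. Aldoc levels were 0.51, 2.78, 2.10 and 0.92 in GFP-negative and 2.27, 1.48, 0.62 and 2.80 in GFP-positive replicates, so that each group spanned over 2 log2 units and the difference was 0.22 ± 0.62. P4ha1 levels were -1.47, -0.09, -0.60 and -0.31 in GFP-negative and -0.94, -0.89, -1.84 and -0.65 in GFP-positive replicates. Adm levels were -3.54, -2.24, -2.54 and -2.82 in GFP-negative and -2.15, -2.09, -3.32 and -1.70 in GFP-positive replicates. In each of these 3 genes GFP-negative replicate 1 and GFP-positive replicate 3 were the lowest of their groups. Ddit4 departed from the order, with 5.12 in GFP-negative replicate 4 as its lowest level and 6.94 in GFP-positive replicate 1 as its highest.

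**Figure D4:**
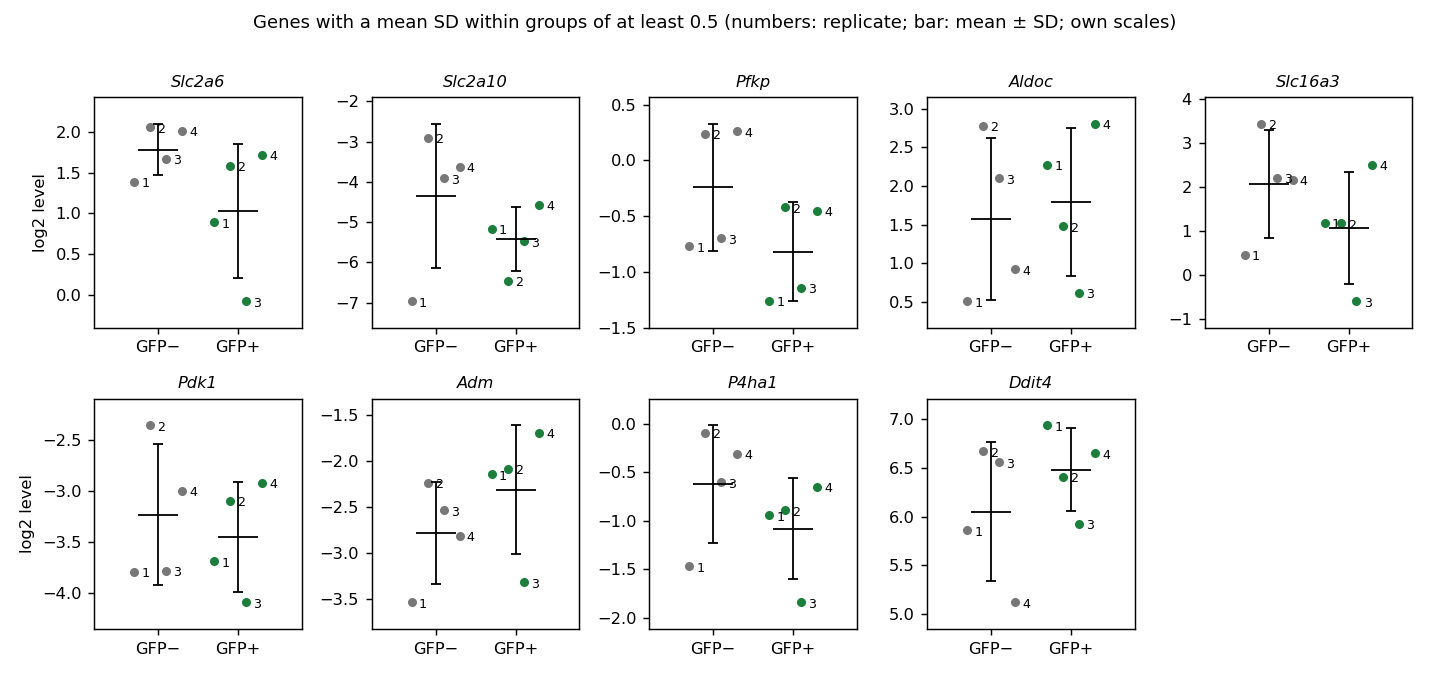
Log2 level on each array of the 9 genes whose mean SD within groups is at least 0.5, grey for GFP-negative and green for GFP-positive cells, numbered by replicate, with mean ± SD (n = 4); each panel has its own scale. GFP-negative replicate 1 and GFP-positive replicate 3 sit at the bottom of most panels, and GFP-negative replicate 2 and GFP-positive replicate 4 at the top.

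The summed fibroblast markers followed a like order, and the summed epithelial markers ran the opposite way. The summed signal of the 7 fibroblast markers was 14.1, 171, 98.8 and 119 in GFP-negative and 15.9, 37.0, 3.76 and 60.4 in GFP-positive replicates, so that GFP-negative replicate 1 and GFP-positive replicate 3 were again the lowest of their groups, and GFP-negative replicate 2 and GFP-positive replicate 4 the highest. The summed signal of the 10 epithelial markers was 731, 453, 708 and 505 in GFP-negative and 822, 724, 829 and 568 in GFP-positive replicates, with those 4 arrays at the opposite ends of their groups. Krt18 and Krt8 had the highest signal and so the most weight in this sum. In GFP-negative cells, Krt8, Krt18, Krt14 and Cldn4 were lowest in replicate 2. Epcam, Cdh1, Krt5, Krt19, Cldn3 and Cldn7 were lowest in replicate 4. Which cells gave the fibroblast signal was not tested, nor was the part of these fibroblast and epithelial orders in the levels of the 9 genes.

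Row 1 of the slide sets GFP-positive replicates 1 and 3 against GFP-negative replicates 2 and 4, and row 2 sets GFP-positive replicates 2 and 4 against GFP-negative replicates 1 and 3. Within row 1 the median of the 34 genes was -0.37, and 3 of them passed the threshold as lower, namely Slc2a10 (-2.05), Pfkp (-1.45) and Bnip3 (-1.01), where 3.18% of all features were called higher and 2.14% lower in that row. Within row 2 the median was -0.07, against -0.05 for all features, and 20 of the 34 genes and 11658 of the 19702 features were below 0. There limma called 0 of the 19702 features, 1130 lying higher and 1015 lower by the unadjusted p. Of the list, 3 genes lay higher and 3 lay lower by that p. Of the 9 widely spread genes, 7 were below 0 in row 1 and above 0 in row 2, for example Pdk1 (-1.21 and 0.78), P4ha1 (-1.19 and 0.27) and Adm (-0.20 and 1.15). The fibroblast markers had medians of -3.63 and 0.41 in the 2 rows and the epithelial markers 1.20 and -0.17. Each row holds 2 arrays against 2, and the difference between rows was not tested.

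**Figure D5:**
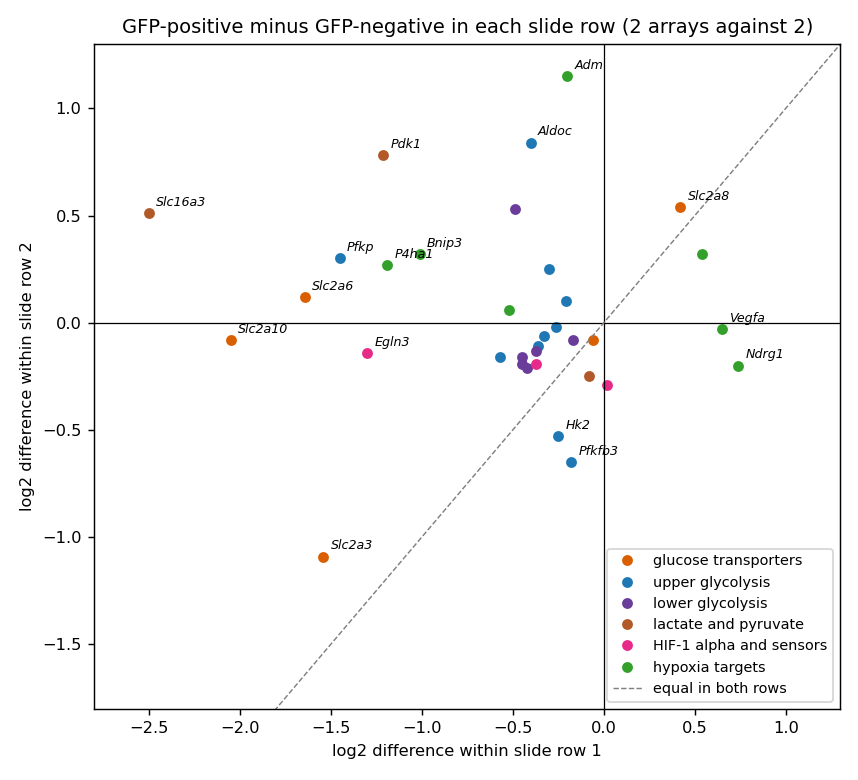
Log2 difference, GFP-positive minus GFP-negative, within slide row 1 (horizontal axis) and within row 2 (vertical axis), 2 arrays against 2 in each, for the 34 genes coloured by role; the dashed line marks equal differences. Slc2a3 (-1.54 and -1.09) and Slc2a8 (0.42 and 0.54) lie near the line, and Slc16a3 (-2.50 and 0.51) lies farthest to the left.

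Tigar, a phosphatase that lowers fructose 2,6-bisphosphate and is known as a p53 target, was found through the accession of its probes, which the files name 9630033F20Rik. Its levels were 2.72, 1.83, 2.35 and 2.07 in GFP-negative and 2.69, 2.40, 2.76 and 2.16 in GFP-positive replicates. The groups overlapped, with a difference of 0.27 ± 0.21 (adjusted p = 0.492), and its second probe gave 0.22. It is left out of every count above.

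Other genes of glucose use and hypoxia, 117 names in 8 lists, gave 97 features bright enough to test. Of these, 2 were called higher (Slc2a9 and Plod2) and 2 lower (Dld and Plod1), where 2.56% of all features were called, and the median difference was -0.04. Groups did not overlap for 18 of the 97 (18.6%, against 16.7% of all features). Slc2a9, a urate and fructose transporter of the glucose transporter family, did not exceed background in GFP-negative cells on any array. Its measured levels were -5.99 to -7.09 there and -3.13 to -3.55 in GFP-positive cells (adjusted p = 0.000551 by limma). Against a background limit for the GFP-negative arrays, the GFP-positive mean was 3.70-fold higher. The limit was per array the lowest signal of any probe well above background, or the probe's own where that was higher. A probe above that limit may still not count as well above background, so 3.70-fold is not a strict lower bound. Slc2a9 passed the filter on dim probes through the GFP-positive arrays alone, so its p rests on GFP-negative values below background. With probes required above background on all 8 arrays, it was not tested. Its difference was 0.64 with normexp, and it missed the threshold within row 2 (0.203). Among the other 4 transporters tested, the insulin-responsive Slc2a4 was at 1.11 ± 0.38 (adjusted p = 0.144) and the fructose transporter Slc2a5 at 0.79 ± 0.32 (adjusted p = 0.199), whereas Slc2a13, a myo-inositol transporter above background on 2 arrays of each group, was at -0.57 ± 0.25 (adjusted p = 0.220) and Slc2a12 at 0.02 ± 0.09. The genes Slc2a2, Slc2a7, Slc5a1 and Slc5a2 were too dim to test. Slc2a4, Slc2a5 and Slc2a13 were at 2.02, 1.60 and -1.10 within row 1 and at 0.19, -0.02 and -0.05 within row 2.

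A list of 16 further genes of pyruvate and lactate, which holds lactate carriers, the mitochondrial pyruvate carrier, pyruvate dehydrogenase with its kinases and phosphatases, and pyruvate carboxylase, had 1 gene past the threshold, with a median difference of -0.05. That gene, Dld, the shared dihydrolipoamide dehydrogenase subunit of pyruvate dehydrogenase and related complexes, had levels of 3.35, 3.29, 3.25 and 3.44 in GFP-negative and 2.80, 3.02, 2.97 and 2.90 in GFP-positive replicates. The groups did not overlap and the gene fell by 0.41 ± 0.08 on the log2 scale (1.33-fold, adjusted p = 0.0402), but with any 1 of the 8 arrays left out it missed the threshold (0.0519 to 0.140; 0.0134 to 0.454 over all alternatives). Dld also missed it with slide row (0.0776) or replicate number (0.139) as a block, within row 1 (0.129) or row 2 (0.454), with quantile normalization (0.0579), with median centring (0.118) and with no filter on dim probes (0.194). Of the 16 genes tested in that list, 7 did not overlap between groups (43.8%), 6 of them lower and 1 higher, against 16.7%, 11.6% and 5.07% of all features. Named after their values were seen, they include the pyruvate dehydrogenase subunits Pdha1 at -0.44 ± 0.11 (adjusted p = 0.0682), Pdhb at -0.28 ± 0.09 (0.126) and Dlat at -0.31 ± 0.11 (0.161), the mitochondrial pyruvate carrier subunit Mpc1 at -0.40 ± 0.11 (0.0898), and pyruvate carboxylase, Pcx, at 0.46 ± 0.11 (0.0628).

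Among other hypoxia targets, the collagen lysyl hydroxylases went opposite ways. Plod2 rose by 0.88 ± 0.15 (1.85-fold, adjusted p = 0.0291), with levels of 0.19, 0.05, -0.19 and 0.07 in GFP-negative and 0.94, 0.72, 1.31 and 0.70 in GFP-positive replicates. Plod1 fell by 0.44 ± 0.09 on the log2 scale (1.36-fold, adjusted p = 0.0413), with 0.25, 0.35, 0.19 and 0.24 against -0.29, -0.18, -0.28 and -0.01. Both sets of groups were separate, so both directions had to hold in each row. The row 1 and row 2 differences were 1.06 and 0.70 for Plod2 and -0.58 and -0.31 for Plod1. With 1 array left out, Plod1 passed without GFP-positive replicate 4 (0.0349) and in no other of the 8 fits (0.0678 to 0.146). Plod2 missed the threshold without GFP-positive replicate 1 (0.106) or GFP-negative replicate 2, 3 or 4 (0.0772, 0.0749 and 0.0857). Both missed it with the replicate number as a block (Plod1 0.120, Plod2 0.113), with median centring (0.146 and 0.0697), with no filter on dim probes (0.191 and 0.114) and within row 2 (0.466 and 0.430). Plod1 missed it also with slide row as a block (0.0741), within row 1 (0.0751) and with the mean of a gene's probes (0.0595). Car12, a carbonic anhydrase named after its values were seen, was at 1.52 ± 0.37 (adjusted p = 0.0718), and Car9, the classic hypoxia marker of the family, at 0.32 ± 0.21.

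The promoters of the list often carry the HIF core, and the matches were not compared between genes that leaned higher and lower. In the 250 bases before each start site, in RefSeq sequences of GRCm38.p6, the letters ACGTG or GCGTG were searched on both strands; a palindromic CACGTG counts on each strand. They occurred in 38.6% of 32851 windows of all genes and in 36 of the 46 windows of the list (78.3%), and at least 2 matches occurred in 16.7% and 52.2%. By gene, 28 of the 33 with an entry had a match in some window (84.8%), against 41.5% of 27025 genes. Slc2a3 and Ndrg1 were not matched to an entry. The list was drawn up around glycolysis and the hypoxia response, so a higher share than among all genes is not an independent finding. The windows of all genes were not matched to those of the list for base content. A match is a string of letters and does not show that HIF binds there.

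The stretches shown contrast genes of different behaviour on the arrays, with matches in capitals, where CACGT and CACGC are the reverse strand's ACGTG and GCGTG. The first is from Slc2a8, which leaned higher, and the next 3 are from enzymes that leaned lower with close replicates.
Slc2a8 promoter, chr2:32982227-32982306, minus strand: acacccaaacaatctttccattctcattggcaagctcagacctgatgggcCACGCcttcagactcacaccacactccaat
Ldha promoter, chr7:46845634-46845799, plus strand: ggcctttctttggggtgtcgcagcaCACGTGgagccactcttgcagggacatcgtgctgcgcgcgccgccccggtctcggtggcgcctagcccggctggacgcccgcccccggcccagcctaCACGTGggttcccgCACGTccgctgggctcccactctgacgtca
Pgk1 promoter, chrX:106186925-106186998, plus strand: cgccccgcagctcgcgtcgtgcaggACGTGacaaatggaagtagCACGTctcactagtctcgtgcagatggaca
Eno1 promoter, chr4:150237086-150237164, plus strand: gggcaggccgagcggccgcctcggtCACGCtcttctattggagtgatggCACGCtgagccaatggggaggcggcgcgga
The following 4 are from genes with a wide spread or a slight difference among the hypoxia targets.
Aldoc promoter, chr11:78322973-78323052, plus strand: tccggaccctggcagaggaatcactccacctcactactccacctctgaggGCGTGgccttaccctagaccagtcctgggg
Slc16a3 promoter, chr11:120948987-120949066, plus strand: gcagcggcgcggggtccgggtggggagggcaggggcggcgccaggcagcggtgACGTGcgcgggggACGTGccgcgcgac
P4ha1 promoter, chr10:59323108-59323295, plus strand: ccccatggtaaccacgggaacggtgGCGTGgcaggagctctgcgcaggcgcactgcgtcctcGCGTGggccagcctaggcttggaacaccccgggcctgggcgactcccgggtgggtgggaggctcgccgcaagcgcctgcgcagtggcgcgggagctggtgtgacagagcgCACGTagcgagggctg
Ankrd37 promoter, chr8:45999901-46000100, minus strand: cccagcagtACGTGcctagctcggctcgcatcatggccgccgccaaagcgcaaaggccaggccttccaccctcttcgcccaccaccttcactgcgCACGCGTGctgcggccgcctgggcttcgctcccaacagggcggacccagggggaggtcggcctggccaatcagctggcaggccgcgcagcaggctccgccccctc
For each gene the stretch comes from its window with the most matches. The Ldha window held 5 matches counted over both strands, the most shown here, and those of Slc2a8 and Aldoc held 1. The other Ldha window held 1. The Ankrd37 stretch ends 51 bases before the start, so the match at -6 in its window is not shown. Ldha (-0.30 ± 0.09) and Slc16a3 (-1.0 ± 0.76) both carry ACGTG close to the start. The SDs of their replicates were 0.09 and 0.12 for Ldha and 1.22 and 1.27 for Slc16a3. Any link between the matches and the levels or their spread was not tested.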

How the data were processed

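The deposited tables are scanner output, 1 array each, extracted with Agilent Feature Extraction 10.7.3.1 per the file headers, which place probes on mm9. The deposited intensity was the processed signal, already background-corrected by that program; later steps of the authors are not given in the sources used. Outlier and control spots were left out, log2 signals were set relative to each array's 75th percentile, spots of a probe were averaged, and probes had to be well above background on 4 or more of the 8 arrays. The brightest kept probe stood for each gene name. The 2 groups were compared in R 4.3.3 with limma 3.58.1, by the two-sided moderated test of lmFit and eBayes without a block, adjusted by Benjamini-Hochberg over all features. The steps were tested on simulated data.

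All 35 genes were named whatever their result; of the other lists, the genes past the threshold. Other genes of those lists and the marker genes given with values were named after their values were seen. The members and lists were chosen with earlier results of these data known. Replicate numbers were not shown to pair the arrays: deviations of same-numbered arrays correlated at -0.027, 0.070, 0.021 and 0.185. The closing section gives the effect of other background corrections, scalings, filters, probe rules, blocks, weights and left-out arrays.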

Additional observations from a re-analysis of the deposited data

Results flagged for a closer look

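For 2 genes, 1 array stood apart from the other 3 of its group by a gap that was a large part of the group's range, above Dixon's critical value for groups of 4. The ratio of gap to range was 0.905 for Tpi1 in GFP-negative replicate 2, whose level of 7.57 exceeded 7.40 to 7.42 in the others. It was 0.842 for Egln3 in GFP-positive replicate 1, whose level of -3.26 lay below -2.39 to -2.22 in the others. Chance flags about 1 in 20 groups, and the 34 genes give 68 groups.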

How the results depend on the processing

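The median difference of the 34 genes stayed below 0 under each of the 21 alternatives, between -0.367 (within slide row 1) and -0.066 (within slide row 2). The median of all features was also below 0 under each, at -0.064 within row 1 and -0.055 within row 2. Median centring moved the median of all features from -0.06 to -0.18 and that of the genes to -0.36. Of 713 values of single genes, 682 kept the sign, and 17 genes kept it throughout.

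The count of all features called, 505 in the fit reported, was 786 with normexp, 203 with median centring, 154 without the filter on dim probes, 278 with slide row as a block, 1048 within row 1, 0 within row 2 (limma; 1130 above 0 and 1015 below 0 at an unadjusted p under 0.05), 1823 with array weights and 1166 with a robust prior that follows intensity. Of the list, 3 genes were called with normexp, 0 without the dim-probe filter (limma; 1 higher and 9 lower unadjusted), 2 with probes above background on all 8 arrays, 3 within row 1, 0 within row 2 (3 higher and 3 lower unadjusted), 6 with array weights and 3 with that prior. Without the dim-probe filter, 1771 of all 34805 features were higher and 2101 lower unadjusted. The causes were not tested.

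Without 1 array at a time, 151 to 428 features and 0 to 2 genes of the list were called, 0 without GFP-positive replicate 1 or 3 or GFP-negative replicate 2 or 3 (limma; 1 or 2 higher and 7 to 10 lower unadjusted), which are the fits in which Slc2a3 missed the threshold. In those same fits, 1157 to 1486 of the 19702 features were higher and 1934 to 2650 lower unadjusted.

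With replicate number as a block, 215 features and 0 genes of the list were called (limma; 1 higher and 11 lower unadjusted). Of the 19702 features, 1546 were higher and 2409 lower unadjusted in that fit. Across all features, each GFP-negative replicate correlated best with a GFP-positive array of another number, so the numbers are not taken as pairs.

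The number of arrays limits precision, and Slc2a10 and Slc2a9 lie near background.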
